A study of Homo sapiens with 4 samples.

Results

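A set of 9 genes known as direct targets of the tumour suppressor p53 (CDKN1A, MDM2, BAX, BBC3, FAS, TNFRSF10B, ZMAT3, RRM2B and AEN) was chosen by name from the 16174 genes of the deposited table, and all 9 were listed in it. They were followed through 4 long-read RNA libraries of the human embryonic stem cell line H9, kept in the primed state. All cells had been transfected with a transposon for CRISPR interference, in which doxycycline switches on dCas9-KRAB (Cas9 without its cutting activity, joined to the KRAB repressor), selected with puromycin and given doxycycline at 1 µg/mL. One arm carried 4 pooled guides against the long non-coding RNA gene SNHG26 and the other carried non-targeting control guides. Each arm had 1 library after 2 days and 1 after 3 days of doxycycline. The protocols describe no cloning step after selection, and the labels do not say whether the libraries came from separate cultures, so a p-value measures only the spread between these libraries. The 2 libraries of an arm differ in day, so every mean ± SD here (n = 2) includes any effect of the day.

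p53 is a transcription factor that is kept low in unstressed cells because MDM2, itself a p53 target, marks it for degradation. When DNA is damaged or ribosome assembly fails, p53 builds up, binds paired short motifs near its targets, and raises genes that stop the cell cycle, repair DNA or start cell death. Human embryonic stem cells are known for dying readily after DNA damage.

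The listed values were shallow, resting on at most 947338 to 1220265 reads per library, with values above 0 for 10603 to 11162 genes. Reads outside the listed genes are not in these numbers. POU5F1, the stem-cell transcription factor, was listed at 1050 to 1212 TPM (reads per length, scaled to a common sum within a library), and 11 of the 12 embryonic stem-cell markers were listed and above 0 in all 4 libraries. Summed levels of the 4 mesendoderm markers listed (of 8) were 0 to 5.34 TPM, with EOMES and FOXA2 at 0 throughout, and those of the 2 amnion and trophectoderm markers listed (of 8) 0 to 1.29 TPM, with ISL1 at 0. The other markers of these lists were not analysed here. Higher sums for the 2 neuroectoderm markers listed of 6 (41.6 to 56.2 TPM) came from TUBB3 (41.5 to 56.2 TPM), and THY1 gave 54.4 to 84.4 TPM of the sums of 65.1 to 96.5 TPM over the 4 fibroblast markers listed of 7. The targeted gene SNHG26 was listed at 0 TPM on day 2 and 0.933 TPM on day 3 with its guides, against 2.98 TPM and 4.03 TPM with control guides, so the arms did not overlap. Over all 8274 genes averaging at least 1 TPM, SNHG26 among them, 13.2% were lower with SNHG26 guides without overlap of the arms. In limma, 0 of these genes had an adjusted p under 0.05 between the arms, so SNHG26 did not pass either. At 0, 3 reads on the whole SNHG26 gene would have been 0.365 TPM. In these bulk samples, fewer cells of a type and less RNA per cell cannot be told apart.

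Of the 9 genes, 5 were high enough to be tested, and for none of these 5 did limma find a difference between the SNHG26 guides and the control guides beyond the spread of the libraries. BAX and AEN were the most abundant, with a mean of 36.6 TPM and 21.1 TPM over the libraries, then CDKN1A (11.4 TPM), MDM2 (6.66 TPM) and RRM2B (3.93 TPM). BBC3, FAS, TNFRSF10B and ZMAT3 had means below 1 TPM, which rested on 3, 1, 3 and 1 reads in all 4 libraries together. TPM here divides by the distance from transcript start to transcript end, introns included, and a difference between neighbours in this order was not tested. The other 5 genes, each averaging 1 TPM or more, were tested with limma on log2(TPM + 1) together with all 8274 genes that met this minimum. Comparing the arms, 0 of 5 had an adjusted p under 0.05 (0% of all genes tested did). At an unadjusted limma p under 0.05, the count was 0 of 5, against 4.07% of all genes (337 genes).

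**Figure D1:**
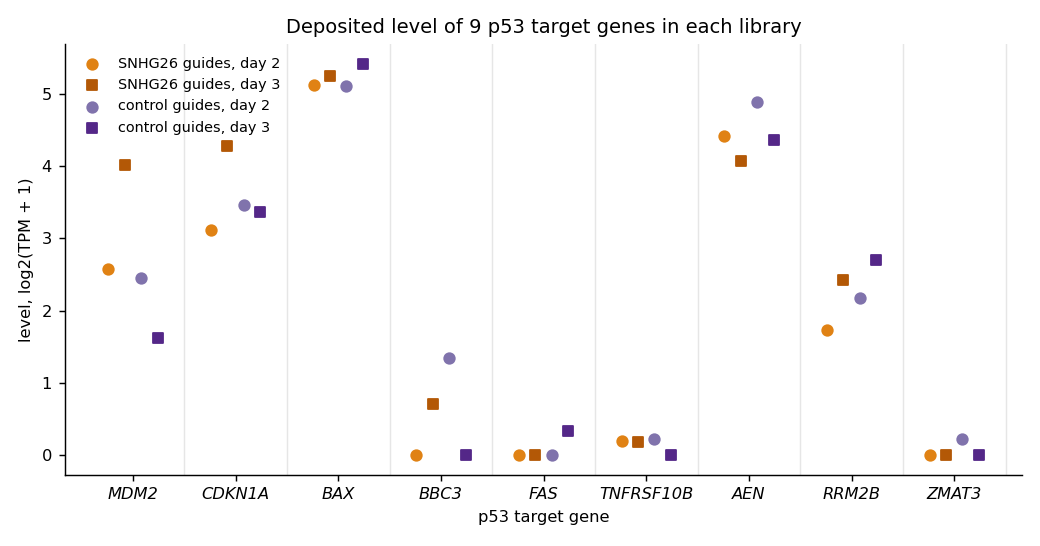
The level of each gene as log2(TPM + 1), with 1 point per library, circles for day 2 and squares for day 3, orange for SNHG26 guides and purple for control guides. BAX lies highest in all 4 libraries, and only MDM2 has both orange points above both purple points among the 5 genes tested.

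MDM2 (chr12:68808177-68845544, plus strand, GRCh38) encodes the E3 ubiquitin ligase that limits p53. With SNHG26 guides the table gives 4.95 TPM for day 2 and 15.2 TPM for day 3, and with control guides 4.45 TPM and 2.07 TPM. The day 3 library with SNHG26 guides stood far above the other 3, and both libraries of its arm were above both controls. Of the 5 tested genes MDM2 was the 1 whose arms did not overlap, higher with SNHG26 guides. Over all genes tested, 29.2% had arms that did not overlap, 16.1% being higher and 13.2% lower with SNHG26 guides. The arms averaged 10.1 ± 7.24 TPM with SNHG26 guides and 3.26 ± 1.68 TPM with control guides (SD, n = 2). The guide change was 1.26 on the log2(TPM + 1) scale (SE 0.66; limma adjusted p = 0.935), and the exact two-sided permutation test over the 4 libraries gave p = 0.333, the smallest it can give. The day 2 pair gave a change of 0.13 and the day 3 pair 2.40. For this difference between the days, which sets 1 library against 1 on each day, 0 of the 5 genes passed in limma, against 0.0967% of all genes, and MDM2 had an adjusted p of 0.961.

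The deposited MDM2 values could be resolved into whole reads, because a library gives each read a fixed worth divided by the span of the transcript it was assigned to. MDM2 had 25 reads on day 2 and 14 on day 3 with SNHG26 guides, and 20 and 11 with control guides. Counted in reads, the 2 days differed more than the 2 arms, and the arms overlapped. In the day 3 library with SNHG26 guides, 12 reads fell on the span of the whole gene (37368 bases), 1 on a span of 31806 bases and 1 on a span of 507 bases. The last matches a short non-coding MDM2 transcript of GENCODE release 29 of the type "processed transcript" (chr12:68843689-68844195), near the 3′ end of the gene. That 1 read was worth 12.9 TPM, which is 84.8% of the gene's 15.2 TPM. The search stopped at the fewest different spans that gave a match, so combinations of more spans were not tried. The combination was the only match among 1217517 tried, with 0.0672 matches expected by accident, a value over the limit of 0.05 that was first set and under the limit of 0.1 set after it had missed. Its other 2 spans were those of all MDM2 reads in the other 3 libraries.

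With every MDM2 read given the same span of 10 kb, the level was 18.2 and 9.14 with SNHG26 guides and 16.1 and 7.39 with control guides. Other genes were not rescaled, so these levels are not TPM. The guide change on this scale, as log2 of the level + 1, was 0.22 (0.17 on day 2 and 0.27 on day 3), against 1.26 from the deposited values. The added 1 weighs differently on levels of another size, so the changes compare only roughly. Exact 95% Poisson intervals ran from 16.2 to 36.9 and from 7.65 to 23.5 reads with SNHG26 guides, and from 12.2 to 30.9 and from 5.49 to 19.7 reads with control guides. Within a day the intervals of the arms overlapped.

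**Figure D2:**
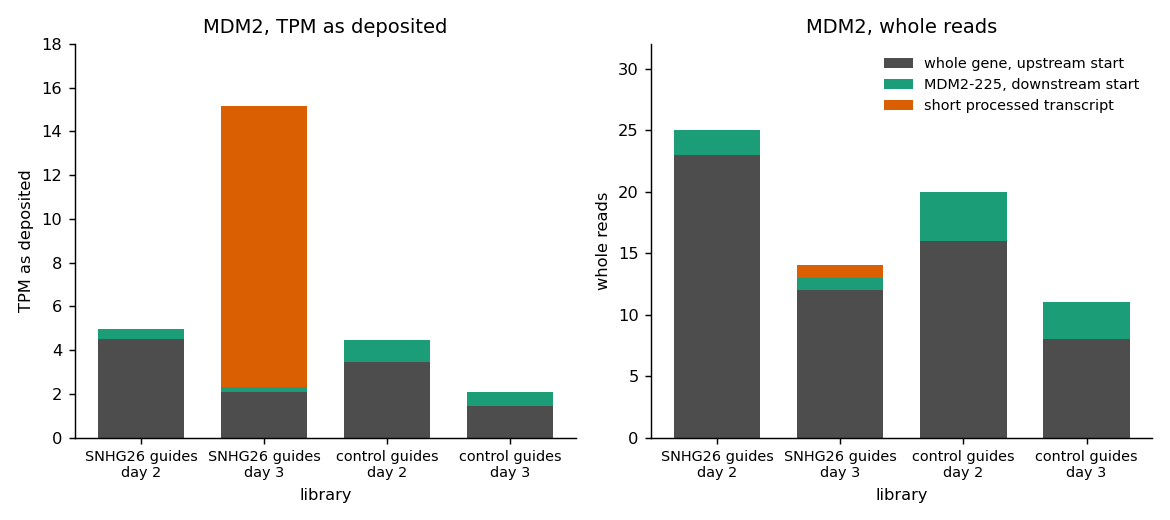
MDM2 in each library, as deposited TPM (left) and as whole reads (right), each bar stacked by the transcript span the reads were assigned to. The orange block is 1 read on the short transcript, worth 12.9 of 15.2 TPM; in reads, both day 3 libraries lie below both day 2 libraries.

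MDM2 is transcribed from an upstream start and from a downstream start in the first intron, and the downstream start is the one known as the p53-responsive promoter. Spans from the upstream start took 23 and 12 reads with SNHG26 guides and 16 and 8 with control guides. The span of transcript MDM2-225, which begins at position 68809002 of chromosome 12, took 2 and 1 reads with SNHG26 guides and 4 and 3 with control guides. The downstream share was 8% and 7.14% with SNHG26 guides and 20% and 27.3% with control guides. Both shares with SNHG26 guides were below both control shares, and the exact permutation test over the 4 libraries gave p = 0.333, its smallest. How often such shares separate the arms over all genes was not measured. Exact 95% Clopper-Pearson intervals were wide, from 0.984% to 26.0% and from 0.181% to 33.9% with SNHG26 guides and from 5.73% to 43.7% and from 6.02% to 61.0% with control guides, and all 4 overlapped. The shares come from the transcript a read was assigned to, not from an observed 5′ end. Intervals on reads cover counting error only, since amplified reads without molecular identifiers are not independent molecules.

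The 200 bases before both MDM2 starts are shown because the reads split between them. They were taken from RefSeq (GRCh38.p14, plus strand), as chr12:68807977-68808176 for the upstream start and chr12:68808817-68809016 for the downstream start. Capitals mark matches to the p53 response element consensus, a run of 20 bases in which a motif of 10 bases stands 2 times with no spacer, allowing up to 3 mismatches; the consensus reads the same on both strands.
MDM2 upstream start: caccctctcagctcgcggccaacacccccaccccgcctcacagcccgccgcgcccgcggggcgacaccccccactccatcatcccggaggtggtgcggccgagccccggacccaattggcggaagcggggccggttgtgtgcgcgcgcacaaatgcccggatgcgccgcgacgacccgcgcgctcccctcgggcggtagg
MDM2 downstream start: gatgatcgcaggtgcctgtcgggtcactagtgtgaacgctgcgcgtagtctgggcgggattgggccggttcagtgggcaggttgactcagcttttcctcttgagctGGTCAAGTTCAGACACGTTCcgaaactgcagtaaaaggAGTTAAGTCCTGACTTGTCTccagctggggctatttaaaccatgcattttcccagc
The upstream window held no match, its nearest stretch having 5 mismatches. The downstream window held 2, beginning 94 and 56 bases before the RefSeq start with 2 and 3 mismatches. Of 34943 such windows over all RefSeq starts, 1175 (3.36%) held a match with up to 3 mismatches and 0.418% one with up to 2. Windows were read for 7 of the 9 genes, and 3 of these (MDM2, FAS and AEN) held a match in at least 1 window. These genes had 13 windows in all, some overlapping. The 3.36% is a share of windows, so the count of genes cannot be set against it, and no share per gene was computed. The windows of CDKN1A, BAX, BBC3 and ZMAT3 held none.

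CDKN1A (chr6:36676460-36687397, plus strand) encodes p21, the inhibitor of cyclin-dependent kinases through which p53 halts the cell cycle. Its value was 7.68 TPM on day 2 and 18.5 TPM on day 3 with SNHG26 guides, and 10.1 TPM and 9.35 TPM with control guides. The day 3 library with SNHG26 guides was the highest and the day 2 library of the same arm the lowest, so the arms overlapped. The arms averaged 13.1 ± 7.63 TPM and 9.70 ± 0.50 TPM (SD, n = 2), with a guide change of 0.28 on the log2(TPM + 1) scale (SE 0.49; limma adjusted p = 0.991). It was -0.35 on day 2 and 0.91 on day 3, and without the day 3 library with SNHG26 guides the guide change was -0.30. The difference between the days was not past the threshold (limma adjusted p = 0.961).

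Behind these CDKN1A values lay 9 and 25 reads with SNHG26 guides and 11 and 12 with control guides. The 25 reads of day 3 had a 95% interval of 16.2 to 36.9, against 6.20 to 21 for the control library of that day. Unlike MDM2, no short span carried the value, and the change on reads was 0.28. The span of 8619 bases, from the RefSeq start at position 36678714 to the gene end, took 8 and 20 reads with SNHG26 guides and 10 and 12 with control guides. Spans from starts upstream of it took 1 and 3 reads with SNHG26 guides and 1 and 0 with control guides. Their share was 11.1% and 12% with SNHG26 guides and 9.09% and 0% with control guides. Both shares with SNHG26 guides were above both control shares (exact permutation p = 0.333, the smallest possible), and the exact 95% intervals overlapped. The day 2 shares rest on 1 read in each arm, and the share of all genes with such a separation was not measured. The 200 bases before the start that most reads were assigned to (RefSeq, GRCh38.p14, chr6:36678514-36678713, plus strand) held no match to the consensus.
CDKN1A main start: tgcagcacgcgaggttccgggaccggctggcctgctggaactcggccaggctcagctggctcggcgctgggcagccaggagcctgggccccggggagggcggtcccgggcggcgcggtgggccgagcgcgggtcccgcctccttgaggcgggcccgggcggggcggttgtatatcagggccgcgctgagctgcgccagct
No match says only that these letters are not in this window.

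**Figure D3:**
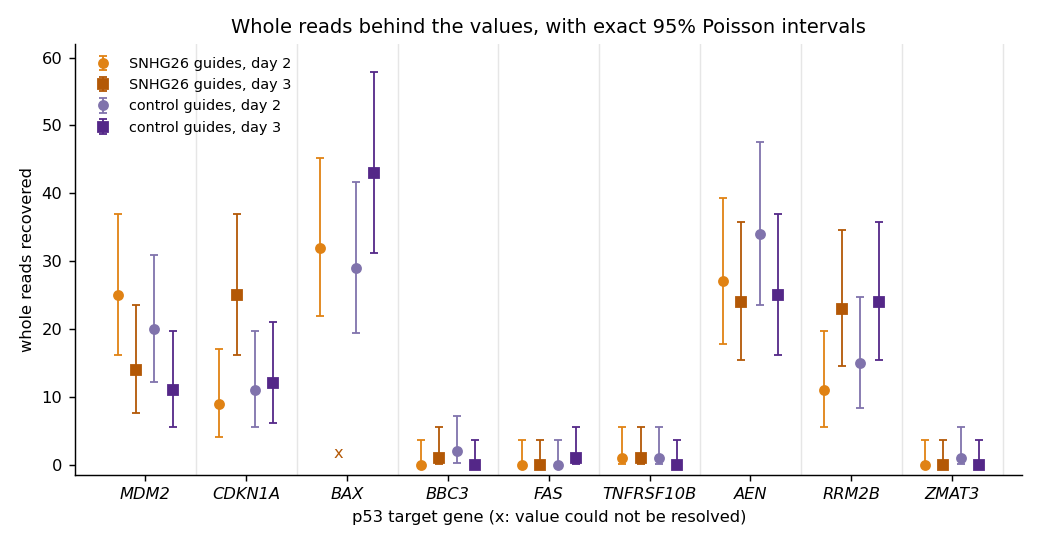
Whole reads recovered for each gene and library, with exact 95% Poisson intervals (counting error only); the cross marks the BAX value that could not be resolved. The 25 CDKN1A reads of day 3 with SNHG26 guides stand above the 9 to 12 of the other libraries, and BBC3, FAS, TNFRSF10B and ZMAT3 have 0 to 2 reads per library.

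BAX and BBC3 encode proteins of the BCL2 family that promote cell death, BAX by opening the outer mitochondrial membrane and BBC3 (PUMA) by binding the survival proteins that hold BAX back. BAX (chr19:48954815-48961798, plus strand) was listed at 33.7 TPM and 37.1 TPM with SNHG26 guides and at 33.7 TPM and 41.8 TPM with control guides. The day 2 libraries were level and both day 3 libraries lay above them. The guide change was -0.08 (SE 0.25; limma adjusted p = 0.998), 0.00 on day 2 and -0.17 on day 3, with arm means of 35.4 ± 2.40 TPM and 37.7 ± 5.75 TPM (SD, n = 2). The BAX values came from 32 reads on day 2 with SNHG26 guides and from 29 and 43 reads with control guides. The day 3 value with SNHG26 guides could not be resolved and holds at most 39.7 reads.

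BBC3 (chr19:47220822-47232766, minus strand) was listed at 0 TPM and 0.629 TPM with SNHG26 guides and at 1.55 TPM and 0 TPM with control guides. These were 0 and 1 reads against 2 and 0, and the arms overlapped. At 0, 3 reads on the whole gene would have been 1.83 TPM on day 2 with SNHG26 guides and 1.69 TPM on day 3 with control guides. A difference in BBC3 was not detectable at this depth.

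FAS and TNFRSF10B are cell-surface death receptors, for FAS ligand and TRAIL. FAS (chr10:88953813-89029605, plus strand) was listed at 0 TPM in 3 libraries and at 0.256 TPM on day 3 with control guides, which is 1 read. At 0, 3 reads on the whole FAS gene would have been 0.259 to 0.318 TPM. In RefSeq, 1 of the 3 FAS windows held a match with 2 mismatches, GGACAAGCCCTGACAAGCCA, beginning 122 bases before the start at position 88991431.

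TNFRSF10B (chromosome 8, minus strand) was listed at 0.149 TPM and 0.140 TPM with SNHG26 guides and at 0.173 TPM and 0 TPM with control guides. That was 1 read in each of 3 libraries, on 3 different spans, and 0 in the control library of day 3, where 3 reads on the whole gene would have been 0.412 TPM. Neither receptor gave a difference that could be detected at this depth.

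AEN (chr15:88621337-88632281, plus strand) encodes an exonuclease that p53 induces during apoptosis. It was listed at 20.4 TPM and 15.8 TPM with SNHG26 guides and at 28.6 TPM and 19.5 TPM with control guides. Within each day the SNHG26-guide library was the lower, yet its day 2 value exceeded the day 3 control, so the arms overlapped. The guide change was -0.38 (SE 0.33; limma adjusted p = 0.935), with arm means of 18.1 ± 3.23 TPM and 24.1 ± 6.39 TPM (SD, n = 2). It was -0.12 without the control library of day 2 and -0.64 without that of day 3. AEN had 27 and 24 reads with SNHG26 guides and 34 and 25 with control guides, and the change on reads was -0.27.

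Some AEN reads were assigned to spans of transcripts that GENCODE release 29 annotates as retaining an intron (AEN-202 and AEN-204). These were 4 of 27 and 3 of 24 reads with SNHG26 guides and 6 of 34 and 8 of 25 reads with control guides. Their share was 14.8% and 12.5% with SNHG26 guides and 17.6% and 32% with control guides, without overlap between the arms (exact permutation p = 0.333, the smallest possible). The downstream share of MDM2 was also lower with SNHG26 guides without overlap, while the upstream share of CDKN1A was higher. How often such shares separate the arms over all genes was not measured. The exact 95% intervals, 4.19% to 33.7% and 2.66% to 32.4% against 6.76% to 34.5% and 14.9% to 53.5%, overlapped. These spans are shorter than the gene and supplied 24.7% and 20.7% of the AEN TPM with SNHG26 guides and 28.1% and 46.6% with control guides. The window before the AEN start (RefSeq, GRCh38.p14, chr15:88621140-88621339, plus strand) held 1 match with 2 mismatches, beginning 34 bases before the start.
AEN start: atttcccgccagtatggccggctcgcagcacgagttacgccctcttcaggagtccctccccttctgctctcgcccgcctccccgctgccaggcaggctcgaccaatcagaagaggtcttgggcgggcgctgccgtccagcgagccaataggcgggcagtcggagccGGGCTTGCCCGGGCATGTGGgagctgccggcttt

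RRM2B encodes the p53-inducible small subunit of ribonucleotide reductase, the enzyme that makes deoxynucleotides for DNA repair. This gene of chromosome 8 was listed at 2.33 TPM and 4.36 TPM with SNHG26 guides and at 3.50 TPM and 5.52 TPM with control guides. Both arms were higher on day 3, and within each day the SNHG26-guide library was the lower. The guide change was -0.36 (SE 0.45; limma adjusted p = 0.961), with arm means of 3.34 ± 1.44 TPM and 4.51 ± 1.43 TPM (SD, n = 2). Leaving out the SNHG26-guide library of day 2 gave -0.015 and leaving out that of day 3 gave -0.70, while it was -0.63 and -0.091 without the control library of day 2 and of day 3. In reads, RRM2B had 11 and 23 with SNHG26 guides and 15 and 24 with control guides. Of the 24 control reads of day 3, 1 lay on the span of a transcript with a retained intron, 6454 bases long, and was worth 1.04 TPM or 18.8% of the value.

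ZMAT3 (chr3:178960121-179072215, minus strand) encodes an RNA-binding zinc finger protein known as a mediator of tumour suppression by p53. It had 0.166 TPM in the day 2 control library, which is 1 read, and at 0 TPM in the other 3 libraries. At 0, 3 reads on the whole gene would have been 0.175 to 0.195 TPM.

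**Figure D4:**
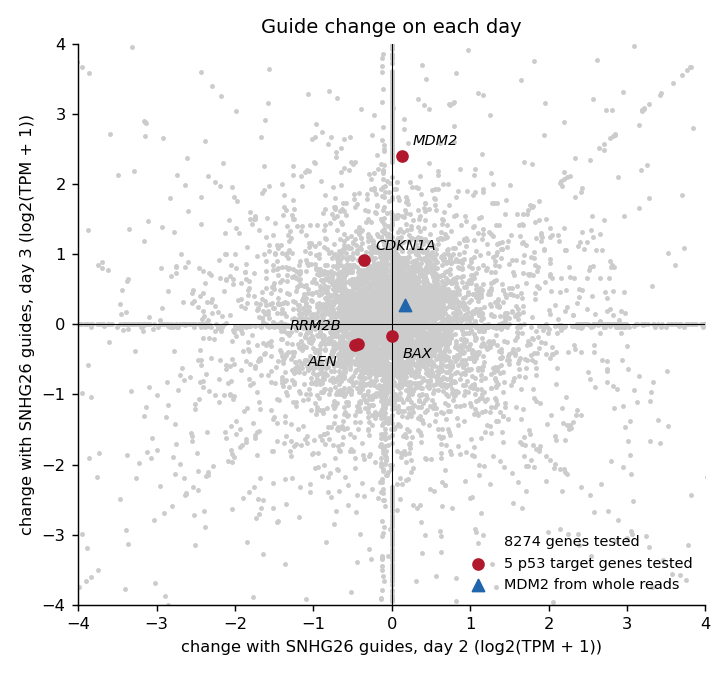
The change with SNHG26 guides on day 2 (horizontal) and on day 3 (vertical), in log2(TPM + 1), for the 8274 genes tested (grey) and the 5 tested p53 targets (red). The blue triangle is MDM2 counted in whole reads, each set on a span of 10 kb, so its scale differs from that of the axes. MDM2 stands at 2.40 on day 3 from TPM and at 0.27 from reads; 385 genes lie beyond the axes, which end at 4.

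The median guide change of the 5 tested targets was -0.08, against 0.04 over all genes tested. Of these, 2 were higher and 3 lower with SNHG26 guides. Between the days, 0 of 5 passed (limma smallest adjusted p = 0.760; 0.0363% of all genes passed), and 0 of 5 had an unadjusted limma p under 0.05 (6.61% of all genes). Both day 3 libraries were above both day 2 libraries for BAX and RRM2B and below them for AEN, so the days did not overlap for 3 of 5, against 35.5% of all genes tested. The day change was 0.22 for BAX, 0.61 for RRM2B and -0.44 for AEN.

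Among 12 tested regulators of p53, 0 passed in either direction. RPL5 and RPL11, ribosomal proteins that bind MDM2 when ribosome assembly fails, were at 2242 to 2764 TPM and 3166 to 3673 TPM with guide changes of -0.10 and 0.05. CHEK1, a DNA damage kinase, had 4.91 TPM and 4.39 TPM with SNHG26 guides and 10.5 TPM and 11.2 TPM with control guides. Its guide change was -1.07 (SE 0.30, limma adjusted p = 0.935, unadjusted p = 0.0223). At an unadjusted limma p under 0.05 the count was 1 of the 12 regulators, against 4.07% of all genes tested.

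Of 24 other tested p53 targets, 0 passed in either direction, 10 were higher and 14 lower, and the median guide change was -0.07. CCNG1, a cyclin of the p53 response, had the highest mean (254 TPM) and a guide change of -0.09. TRIAP1, an inhibitor of apoptosis, changed by -0.01, PMAIP1 (NOXA), a promoter of it, by 0.05, and DDB2, a sensor of ultraviolet DNA damage, by -0.23. All 4 had limma adjusted p-values above 0.05. At an unadjusted limma p under 0.05 the count was 1 of 24, against 4.07% of all genes tested. That was BTG2, with a guide change of -1.18 (limma unadjusted p = 0.0449, adjusted p = 0.935) on 1 to 4 reads per library.

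Among the partners of p21 and the other inhibitors listed with them, 0 of 11 cyclin-dependent kinases, cyclins and inhibitors passed in either direction. CDK1 changed by 0.01, CCNA2 by 0.09, CCND1 by 0.13 and CDK4 by 0.52 with SNHG26 guides. At an unadjusted limma p under 0.05 the count was 1 of 11, against 4.07% of all genes tested. That was CDKN2D, with a change of 2.56 (limma unadjusted p = 0.0140, adjusted p = 0.852). It was listed at 2.89 TPM and 7.90 TPM with SNHG26 guides and at 0 TPM in both control libraries. The values with SNHG26 guides hold at most 1.03 reads on day 2 and 3.15 reads on day 3. The DREAM complex represses cell cycle genes when p21 is high, and 0 of 16 of its tested targets passed. CCNB1, a cyclin of mitosis, was at 640 TPM and 722 TPM with SNHG26 guides and at 622 TPM and 569 TPM with control guides, a change of 0.19. CDC20, PLK1 and AURKB, which also act in mitosis, changed by 0.20, 0.08 and 0.24. Between the days, 12 of the 16 were higher in both day 3 libraries and 0 were lower, against 17.1% and 18.4% of all genes tested. The median day change of the list was 0.36, and 0 of 16 passed (limma smallest adjusted p = 0.595, for PLK1).

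In the cell death lists, 0 of 6 BCL2 family genes and 0 of 6 genes of the death receptor pathway passed. BAK1, the partner of BAX at the mitochondrion, changed by 0.25, and the survival proteins MCL1 and BCL2L1 by 0.12 and 0.21. FADD, the adaptor of FAS, changed by -0.16 and cytochrome c (CYCS) by -0.20. Among the 4 tested genes of deoxynucleotide supply, 0 passed, and RRM2, the subunit of the S phase, changed by 0.41 and its partner RRM1 by -0.07. None of these lists was tested as a set.

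**Figure D5:**
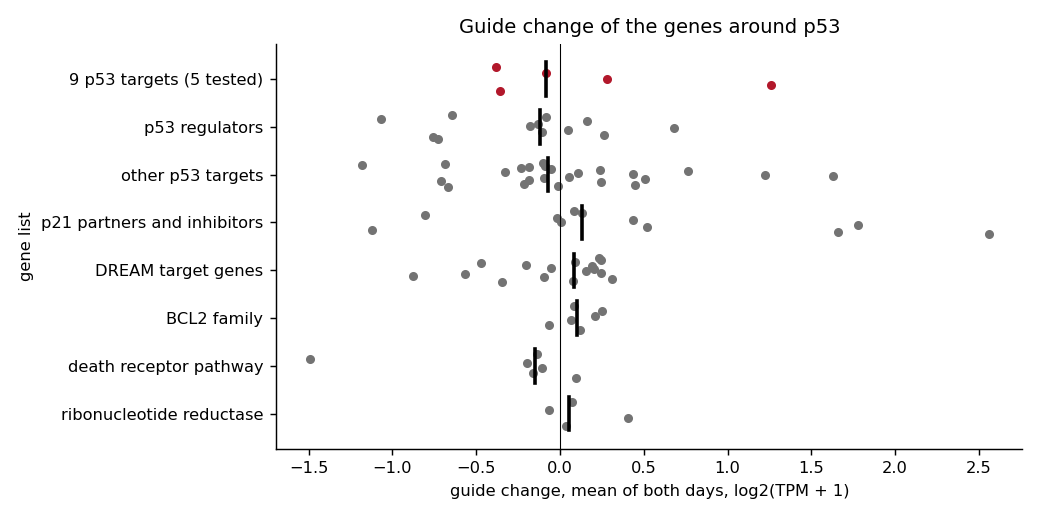
The guide change of each tested gene, as the mean of both days on the log2(TPM + 1) scale, for the 9 p53 targets (red, 5 tested) and 7 lists of related genes (grey), with a bar at each median. The list medians lie between -0.15 and 0.13, and MDM2 is the red point at 1.26.

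The genes with levels most like those of BAX, the most abundant of the 9, were CUEDC2, CIAO2A and PMPCB, with a mean absolute difference in log2(TPM + 1) of 0.0501, 0.0664 and 0.0670 over the 4 libraries.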

How the data were processed

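The authors deposited gene-level TPM of 4 nanopore libraries made from poly(A) RNA with 14 cycles of PCR, per the labels' protocols. Reads were aligned with minimap2 2.24-r1122 to GRCh38, per the submitters' processing notes. The counting tool, annotation and filters are not given in the sources used here. From the values, TPM divides by genomic span, introns included, so a read on a short transcript weighs more than a read on a long one.

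The tests used log2(TPM + 1), a scale on which low genes seem to change less than they do. The 8274 genes averaging 1 TPM or more entered limma 3.58.1 (R 4.3.3; eBayes with trend), with Benjamini-Hochberg adjustment over all of them and a threshold of 0.05. The alternatives were other pseudocounts, filters and scaling, no trend, the day as a replicate block and leaving out each library. Both analyses were also run on simulated data. The simulated reads lay only on spans that the search tries. The simulated guide changes held no day effect and were placed only in genes with more reads than the tested targets. These runs therefore cannot show errors from transcripts missing in the references or from the day. They also cannot show how well changes in genes with as few reads as these targets would be found.

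A value was resolved into whole reads where 1 combination of spans, from GENCODE release 29 or RefSeq, fitted its deposited digits (10 significant, at most 9 decimals). Fewer than 0.1 matches had to be expected by accident. Up to 4 different spans were allowed, and the search stopped at the fewest that gave a match. Of the 27 values above 0 of the 9 genes, 26 resolved (96.3%), against 63.2% of the 492 values above 0 in all the gene lists used here. BBC3 used 1 span that neither reference holds. A span is a match of length, so another transcript of equal span is possible. This step, its spans and limits, and the mismatches allowed in the promoter search were chosen after seeing the data. The limit was raised from 0.05 to 0.1, and the tolerance tied to the deposited digits, after the day 3 MDM2 value with SNHG26 guides had missed; at 0.05 that value would stay unresolved.

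The 9 genes and the lists were chosen with earlier results of these data known. All 9, SNHG26, the most abundant genes of each list (4, or 2 for other cell types) and the 3 most like BAX are named by rule. CHEK1, BTG2, CDKN2D, EP300, CFLAR, EOMES and FOXA2 were named after their values were seen. Some genes that the rule takes are not reported here.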

Additional observations from a re-analysis of the deposited data

How the results depend on the processing

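Comparing the guide arms, 0 of 8274 genes and 0 of the 5 tested p53 targets passed in limma. The counts were also 0 under every alternative that gave a test, with 4 of the targets tested at a minimum mean of 5 TPM and 9 with no filter; the whole reads gave no test. The guide change of CDKN1A was 0.28 and ran from -0.30 (without SNHG26 guides on day 3) to 0.86 as 1 library at a time was left out. That of BAX was -0.08 and ran from -0.23 to 0.070, the last without control guides on day 3. That of MDM2 was 1.26, ran from 0.54 to 1.98, and was 0.22 from whole reads in place of TPM, an alternative chosen after seeing the data. That of RRM2B was -0.36 and ran from -0.70 (without SNHG26 guides on day 3) to -0.015 (without SNHG26 guides on day 2), and that of AEN was -0.38 and ran from -0.64 (without control guides on day 3) to -0.12 (without control guides on day 2). RRM2B averages under 5 TPM and was not tested at that minimum.

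Day 3 against day 2, limma called 3 genes. The number was 0 for pseudocounts of 0.1 and 5, for no filter, for no trend, for the replicate block, and 0 to 0 without each library in turn. For the difference of the guide change between the days, limma called 8 genes. Here each arm has 1 library per day, so the spread comes only from the arm and day effects pooled with it, and the calls have no replicate check. They became 14 at a pseudocount of 0.1, 13 at a minimum mean of 5 TPM, and 0 at a pseudocount of 5, with no filter, with no trend or with the replicate block. The cause was not tested. In both fits, 0 of the 5 tested p53 targets were called.

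Libraries of both arms share a number only through the day. Across 8274 genes, the correlation between the deviations of the 2 day 2 libraries, each from its own arm's mean, was 0.0464. With the replicate block, 0 genes passed between the arms.

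Depth sets the limits. BBC3, FAS, TNFRSF10B and ZMAT3 rest on 1 to 3 reads in all, and the resolved values of the other 5 genes on 9 to 43 reads per library. With 2 libraries per arm, the exact permutation test cannot go below 0.333. Within an arm, day and library cannot be told apart.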

Other observations

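In the lists read beside the 9 targets, other deposited values rested on as little as the MDM2 value of day 3. EP300, an acetyltransferase that acts on p53, was listed in the control library of day 2 at 12.0 TPM, all of it from 2 reads on a span of 1338 bases. CFLAR, an inhibitor of death receptor signalling, drew 12.3 TPM in the same library, or 98.7% of its value, from 1 read on a span of 655 bases. These and the MDM2 value were 3 of 5 found by a search for values with at least 80% of the TPM from at most 2 reads on a span of at most 10% of the gene. The other 2 were in the control library of day 3, where 1 read each was worth 1.48 TPM and 0.710 TPM. Only resolved values could be searched, 63.2% of those above 0 in the lists, so such values may be missing from the 5. The search also took each span alone. It therefore left out EP300 on day 2 with SNHG26 guides, at 9.18 TPM from 2 reads on 2 spans.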
